A study of Homo sapiens with 2 samples.

Results

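The ERBB receptors and their EGF-like ligands were examined as 10 genes in the peak list of a ChIP-seq experiment on the ETS transcription factor ETV4. The 4 receptor genes are EGFR, ERBB2, ERBB3 and ERBB4, and the 6 ligand genes are AREG, EREG, HBEGF, TGFA, BTC and NRG1. They were taken by name from the 19974 protein-coding RefSeq genes on chromosomes 1 to 22 and X, and every peak whose interval came within 20 kb of the span of a member gene was assigned to it. This gave 67 of the 54389 peaks of the list. The material was A549, an established human lung adenocarcinoma line. ETV4 had been knocked down in it by shRNA (A549-shETV4) and Flag-tagged ETV4 was supplied again by transfection, so the factor measured is the exogenous, tagged protein. The experiment had 1 anti-Flag immunoprecipitate and 1 input library. Neither had a replicate and no untransfected cells were among the samples, so differences between conditions, an SD or a test of them cannot be given, and the values describe this library. Neither the RNA nor the protein of the member genes was measured in these libraries.

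ERBB receptors are tyrosine kinases of the cell surface that pair with each other when a ligand binds and then switch on the RAS-ERK and PI3K pathways. The ligands are made as membrane-bound precursors and are cut free by proteases. Most of them, among them AREG, TGFA, HBEGF, EREG and BTC, bind EGFR, though not all of them EGFR alone. Neuregulins such as NRG1 bind ERBB3 and ERBB4. ERBB2 has no known ligand and ERBB3 has little kinase activity of its own. In lung adenocarcinoma these receptors are well known as drivers and drug targets. ETV4 belongs to the PEA3 group of ETS factors, which bind DNA around a GGAA core and act downstream of receptor tyrosine kinases.

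The promoters of the members are shown here because the strength of the peak over this stretch and the motifs in it differed from gene to gene, and EREG is shown as the member without a peak. The outer start of each of the 8 members in the promoter table is shown, and the inner starts of EGFR and TGFA are not. Each sequence is the 250 bases before the RefSeq start of the gene (GRCh38.p14), 5′ to 3′ along the direction of transcription. Capitals mark matches on either strand to the ETS core GGAA, to the longer ETS motif CCGGAAGT, which contains that core, or to the AP-1 motif TGANTCA, which reads the same on both strands except at its middle base. The windows are chr17:39687844-39688093 on the forward strand for ERBB2, chr7:55018767-55019016 on the forward strand for EGFR, chr2:70553827-70554076 on the reverse strand for TGFA, chr5:140346604-140346853 on the reverse strand for HBEGF, chr2:212538803-212539052 on the reverse strand for ERBB4, chr4:74794524-74794773 on the reverse strand for BTC, and, on the forward strand, chr4:74444886-74445135 for AREG and chr4:74364895-74365144 for EREG. All but that of EREG were overlapped by a peak.
ERBB2: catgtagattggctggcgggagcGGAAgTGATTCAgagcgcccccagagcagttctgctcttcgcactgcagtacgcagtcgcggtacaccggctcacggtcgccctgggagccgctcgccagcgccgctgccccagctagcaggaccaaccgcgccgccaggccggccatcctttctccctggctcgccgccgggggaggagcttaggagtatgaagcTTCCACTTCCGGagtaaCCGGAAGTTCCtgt
EGFR: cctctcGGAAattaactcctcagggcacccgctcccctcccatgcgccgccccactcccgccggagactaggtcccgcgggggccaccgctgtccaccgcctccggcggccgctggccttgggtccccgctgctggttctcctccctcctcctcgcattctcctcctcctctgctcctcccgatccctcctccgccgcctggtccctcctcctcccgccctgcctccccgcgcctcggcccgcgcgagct
TGFA: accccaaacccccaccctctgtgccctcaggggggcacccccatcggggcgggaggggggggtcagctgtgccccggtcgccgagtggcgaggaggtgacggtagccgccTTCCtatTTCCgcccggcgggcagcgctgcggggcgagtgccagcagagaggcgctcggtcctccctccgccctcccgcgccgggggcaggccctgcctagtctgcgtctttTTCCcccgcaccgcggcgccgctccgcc
HBEGF: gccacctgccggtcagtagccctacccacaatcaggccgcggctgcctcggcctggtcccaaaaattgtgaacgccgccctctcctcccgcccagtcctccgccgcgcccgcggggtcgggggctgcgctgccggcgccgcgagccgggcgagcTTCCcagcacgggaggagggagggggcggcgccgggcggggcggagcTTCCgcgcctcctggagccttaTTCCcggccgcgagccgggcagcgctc
ERBB4: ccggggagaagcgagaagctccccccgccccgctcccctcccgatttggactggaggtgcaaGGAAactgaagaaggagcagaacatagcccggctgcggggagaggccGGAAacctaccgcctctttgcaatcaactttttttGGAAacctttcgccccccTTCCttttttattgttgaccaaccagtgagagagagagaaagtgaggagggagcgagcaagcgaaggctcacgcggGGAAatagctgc
BTC: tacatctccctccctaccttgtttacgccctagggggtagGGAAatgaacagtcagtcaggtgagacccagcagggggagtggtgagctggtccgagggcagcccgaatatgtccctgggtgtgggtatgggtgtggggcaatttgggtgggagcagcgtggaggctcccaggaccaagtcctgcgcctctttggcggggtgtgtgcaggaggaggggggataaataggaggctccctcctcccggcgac
AREG: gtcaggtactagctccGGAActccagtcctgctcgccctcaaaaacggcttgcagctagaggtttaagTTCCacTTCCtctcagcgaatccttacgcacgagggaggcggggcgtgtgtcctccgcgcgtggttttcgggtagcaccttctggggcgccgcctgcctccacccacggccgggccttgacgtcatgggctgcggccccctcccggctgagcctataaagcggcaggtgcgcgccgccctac
EREG: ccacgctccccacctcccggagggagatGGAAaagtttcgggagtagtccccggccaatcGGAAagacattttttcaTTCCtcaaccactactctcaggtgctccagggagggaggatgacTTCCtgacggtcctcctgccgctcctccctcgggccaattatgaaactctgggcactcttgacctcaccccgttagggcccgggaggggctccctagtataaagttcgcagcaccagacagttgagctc

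The promoter of ERBB2 was the only one of the 10 promoter windows listed for 8 member genes that held the longer motif, and it held it at 2 places. A match read on the forward strand lay 14 to 7 bases before the start, and a match read on the reverse strand lay 27 to 20 bases before it. The peak over this promoter had its summit 30 bp inside the gene, 40.5 bp from the centre of the nearer match and 53.5 bp from that of the other. The neighbouring gene PGAP3 lies on the upstream side of ERBB2. Whether the motifs or the peak belong to PGAP3 as well was not tested. Over all 22156 promoter windows of protein-coding genes, 4.41% held the longer motif and 0.366% held it at 2 or more places. It was present in 7.27% of the 12019 windows overlapped by a peak and in 1.03% of the 10137 windows without a peak. The AP-1 motif of ERBB2, next to a GGAA core, lay 222 to 216 bases before the start. AP-1 motifs were held by 5.36% of all windows, by 3.48% of those overlapped by a peak and by 7.60% of those without a peak. The GGAA core says little by itself, since 92.5% of all windows held it at least once, with a median of 3 matches. EREG, with no peak, had 4 cores. EGFR and BTC, with start peaks of fold 38.5 and 21.2, had 1 each. ERBB4, with a fold of 6.10 over its window, had 5. The number of cores in these 250 bases thus did not order the members by fold. In EGFR, BTC, AREG, ERBB2 and ERBB4 the summit lay outside these bases. The sequence under those summits was not read, so no conclusion on cores at the summits can be drawn. The GC content of the windows shown was 76.4% in HBEGF, 75.6% in TGFA, 73.6% in EGFR, 65.6% in ERBB2, 65.2% in AREG, 62% in BTC, 58% in EREG and 57.2% in ERBB4. ERBB4, with a peak over its window, was thus lower than EREG, and GC content did not separate EREG from the others. The median was 67.2% in windows overlapped by a peak and 53.6% in those without. A motif match is a string of letters here, and binding at it was not tested.

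Of the 10 members, 9 had at least 1 peak within 20 kb, and EREG had none. Such a peak was found for 86.3% of all protein-coding genes, so this count is close to what most genes show. A peak with a fold enrichment of 20 or more was present for 6 members (EGFR, ERBB3, HBEGF, TGFA, BTC and NRG1), against 52.6% of all protein-coding genes. HBEGF counted only through a peak 19.0 kb upstream, inside the neighbouring gene SLC4A9. The count was 5 with the gene span plus 5 kb, with the span alone, or with only the peaks nearest to the start of the member. It was 7 with 50 kb on each side. The share of 52.6% holds for the 20 kb windows only. The 5′ end had a peak no more than 1 kb away in 9 of 10 members, against 61.5% of the 15815 protein-coding genes whose direction was known. ERBB3 and NRG1 have no entry in the promoter table and were taken as transcribed on the forward strand, which is general knowledge and not a value of the table. Fold enrichment is the signal of the immunoprecipitate over the control level at the summit, as the peak caller gave it, and −log10 q is its significance after correction over the genome. The fold of the 67 peaks ranged from 3.07 to 175.

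**Figure D1:**
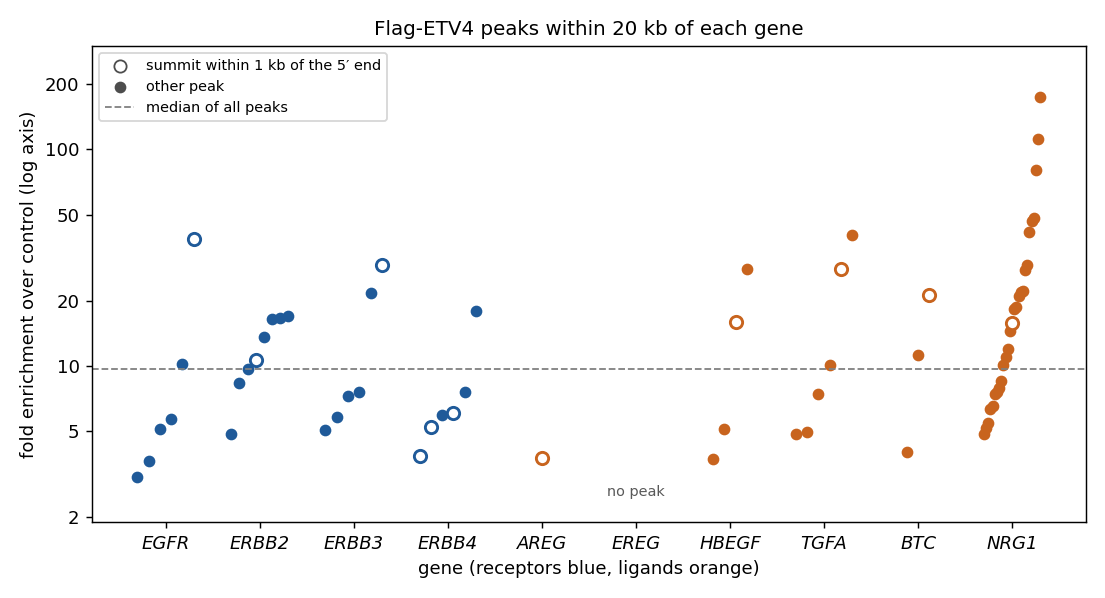
Fold enrichment of each of the 67 peaks (log axis) by gene, receptors in blue and ligands in orange, with open circles for summits within 1 kb of the 5′ end and a dashed line at the median of all peaks, 9.63. The receptor peaks end at 38.5, the 2 peaks above 100 both belong to NRG1, and EREG has no peak.

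EGFR, the receptor for EGF itself, lies on chromosome 7 from 55019017 to 55211628. It had 6 peaks, all with their summit inside the gene. The strongest, from 55018653 to 55020515, spanned the 5′ end and was the strongest peak of any receptor. It had a fold of 38.5, at percentile 89.9 of all peaks, a −log10 q of 164 and a width of 1863 bp. Its summit lay 476 bp inside the gene. There, 125 fragments were piled up, where the control level was 2.28, both worked back from the fold and p-value of the peak. The exact Poisson 95% confidence interval of this pileup is 104 to 149, and the ranges in parentheses after other fragment numbers are intervals of the same kind. The next strongest, from 55145166 to 55145684, was 126 kb inside the gene with a fold of 10.2. The third, from 55129524 to 55129905, had a fold of 5.68. The others had folds from 3.07 to 5.13. The weakest, from 55155217 to 55155479, rested on 6 fragments (2.2 to 13.1) and a −log10 q of 1.48. RefSeq lists a further start of EGFR at position 55109839. No peak overlapped its promoter window, which held 2 AP-1 motifs and no longer ETS motif.

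ERBB2, the receptor without a known ligand, lies on chromosome 17 from 39688094 to 39728658 among the closely packed genes PNMT, PGAP3, MIEN1 and GRB7. Its window held 8 peaks, the most of any receptor. The highest folds were 17.1 (39740214 to 39740913), 16.6 (39736122 to 39736633) and 16.5 (39667629 to 39668689). None of these was at ERBB2 itself. Their summits lay inside GRB7, between MIEN1 and GRB7, and inside PNMT, 322 bp from an end of that gene. The highest fold with a summit inside ERBB2 was 13.6 (39727728 to 39728528). That summit lay 438 bp before the 3′ end of ERBB2 and was nearest to the start of MIEN1, 2312 bp away. The peak with the 2 ETS motifs, from 39687886 to 39688244, had a fold of 10.7, a −log10 q of 20.7 and a width of 359 bp. At the summit lay 25 fragments (16.2 to 36.9), and the control level was 1.44. Only this peak and the weakest, from 39700034 to 39700438 with a fold of 4.84 and a summit 12.2 kb inside the gene, were nearer to the start of ERBB2 than to the start of another protein-coding gene (or, for PNMT and GRB7, whose direction the table does not give, either end). ERBB2 is known to have transcripts that begin inside this outer end, and the table used here gives no inner start for it. Whether the peak from 39700034 to 39700438 lies at an inner start was therefore not tested. The fold of 10.7 is that of the outer 5′ end only. A peak at the 5′ end of MIEN1, 39730205 to 39730859, had a fold of 8.38 and a summit 32 bp inside MIEN1.

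ERBB3, the receptor with weak kinase activity that signals through its partners, lies on chromosome 12 from 56080108 to 56103505. The strongest of its 6 peaks, from 56078966 to 56080368, had its summit 37 bp inside the gene. It had a fold of 29.1, a −log10 q of 115 and 97 fragments (78.7 to 118) over a control of 2.36. A second peak inside the gene, 2196 bp from the start, had a fold of 7.29. The other 4 peaks lay beyond the 3′ end, and each was nearest to the start of another gene. One of them, from 56118054 to 56118806 with a fold of 21.7, had its summit 46 bp from the start of ZC3H10. The peak next to RPL41, also with a summit 46 bp from its start, had a fold of 5.81, and the peak next to PA2G4 had a fold of 7.61. The weakest was inside ZC3H10, with a fold of 5.06.

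ERBB4, a neuregulin receptor, spans 1163 kb of chromosome 2, from 211375717 to 212538802 on the reverse strand. It had 6 peaks, no more than EGFR in a gene of 193 kb. Next to the 5′ end, 3 narrow peaks of 230 to 319 bp had folds of 6.10, 5.26 and 3.84 and pileups of 13, 11 and 11 fragments. Their Poisson intervals lay within 5.49 to 22.2 fragments, so the order of the pileups is not resolved. The upstream one, from 212538901 to 212539206, overlapped the listed promoter. The strongest peak was deep inside the gene, 843 kb from the start, from 211695774 to 211696240. It had a fold of 18.0, a −log10 q of 48.4 and 47 fragments (34.5 to 62.5). The second highest, from 212052448 to 212052891 and 486 kb from the start, had a fold of 7.61. The largest distance between neighbouring summits of ERBB4 was 485 kb.

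**Figure D2:**
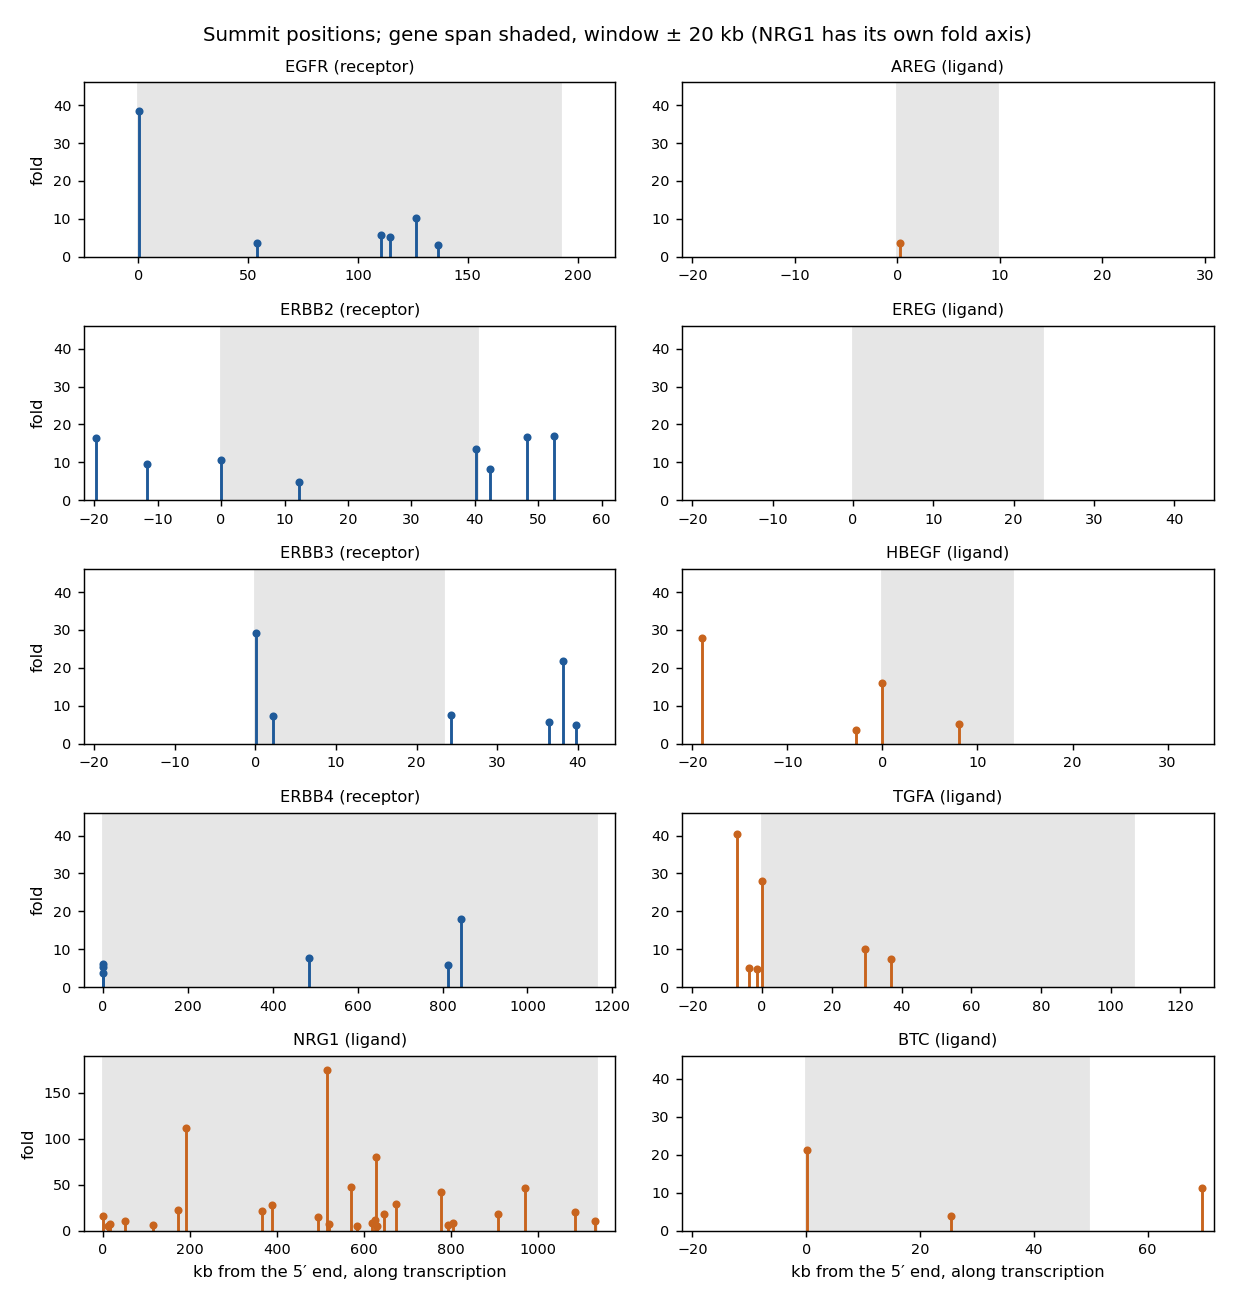
Fold enrichment of each peak against the position of its summit in kb from the 5′ end along the direction of transcription, in 1 panel per gene with the gene span shaded and the window of 20 kb on each side. EGFR, ERBB3 and BTC have their strongest peak at the 5′ end, AREG has its only peak there, and the strongest of ERBB4 and NRG1 lie deep inside the gene. The fold axis of NRG1 reaches higher than the others.

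Among the ligands, AREG and EREG, which encode amphiregulin and epiregulin, lie next to each other on chromosome 4. AREG runs from 74445136 to 74455005 and EREG from 74365145 to 74388749, 56.4 kb apart. The 1 peak of AREG, from 74444931 to 74445443, overlapped its promoter with a fold of 3.75, at percentile 4.62 of all peaks, and a −log10 q of 3.40. It rested on 11 fragments (5.49 to 19.7) over a control of 2.2. EREG lay in a stretch of 187 kb without a peak, from 74231538 to 74418348, which also holds EPGN, the gene for a further ligand, epigen. The nearest peaks lay in the gap between EREG and AREG, outside the 20 kb windows of both. The peak from 74421602 to 74422095 had a fold of 17.6, a −log10 q of 61.2 and 64 fragments (49.3 to 81.7), and its summit was 23.3 kb before the start of AREG. Beside it, the peak from 74418349 to 74418745 had a fold of 11.1. The interval of the pileup at 74421876 does not overlap that of the AREG promoter peak. No value here links these peaks to either gene.

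HBEGF, the heparin-binding ligand on chromosome 5 from 140332843 to 140346603 (reverse strand), had 4 peaks. At its promoter, the peak from 140346071 to 140347035 had a fold of 16.0, a −log10 q of 41.8 and a summit 67 bp before the start, with 43 fragments (31.1 to 57.9). The strongest was 19.0 kb upstream, from 140365296 to 140365919, with a fold of 28.0 and 68 fragments (52.8 to 86.2). Its summit lay inside SLC4A9, an anion transporter gene, 5427 bp from the start of that gene. The Poisson intervals of these pileups overlapped. The other peaks had folds of 5.12, inside the gene, and 3.71, 2823 bp upstream.

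TGFA, on chromosome 2 from 70447284 to 70553826 (reverse strand), encodes TGF-alpha, a high-affinity ligand of EGFR. It had 6 peaks, of which 2 had a fold of 20 or more. The peak from 70553003 to 70554555 covered the promoters of both listed starts, with a fold of 27.9, a −log10 q of 97.9 and 82 fragments (65.2 to 102). The strongest, from 70560759 to 70561378, was 7.26 kb upstream of the outer start with a fold of 40.4, a −log10 q of 133 and 94 fragments (76.0 to 115). It lies inside the non-coding gene LOC124907824. The third, from 70524186 to 70525405 with a fold of 10.1, was inside TGFA, and the weakest, 1525 bp upstream, had a fold of 4.84. The pileups of the 2 strongest peaks did not differ beyond their counting intervals.

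BTC, on chromosome 4 from 74744759 to 74794523 (reverse strand), encodes betacellulin. Its strongest peak, from 74793562 to 74795003, covered the promoter with a fold of 21.2, a −log10 q of 73.7 and 70 fragments (54.6 to 88.4). The weakest, from 74768808 to 74769149 and within the gene body, had a fold of 4.01 and 10 fragments (4.80 to 18.4). The third, 19.7 kb beyond the 3′ end, had a fold of 11.2. The intervals of the promoter pileups of BTC and AREG, both on chromosome 4, did not overlap, and their control levels were 2.35 and 2.2.

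NRG1, the neuregulin that activates ERBB3 and ERBB4, lies on chromosome 8 from 31639245 to 32774046 and is known for several alternative promoters spread along the gene. It held 27 of the 67 member peaks, all with a summit inside the gene. The strongest, from 32154031 to 32155017, was 515 kb from the outer 5′ end. It had a fold of 175, at percentile 99.9 of all peaks, a −log10 q of 818 and 398 fragments (360 to 439) over a control of 1.28. The next had a fold of 112 (31829876 to 31830877, 257 fragments, 227 to 290) and of 80.7 (32266480 to 32267670, 243 fragments, 213 to 276). The Poisson interval of the strongest overlapped neither of these, while theirs overlapped each other. At the outer 5′ end, the peak from 31639007 to 31641068 was the widest of the members, 2062 bp, with a fold of 15.9 and 47 fragments (34.5 to 62.5). The weakest peak had a fold of 4.86. In all, 11 peaks had a fold of 20 or more, and these lay 173 to 1085 kb from the outer 5′ end. Whether any of them is at an inner start was not tested, since no start of NRG1 is listed in the promoter table. The median distance between neighbouring summits was 25.2 kb.

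**Figure D3:**
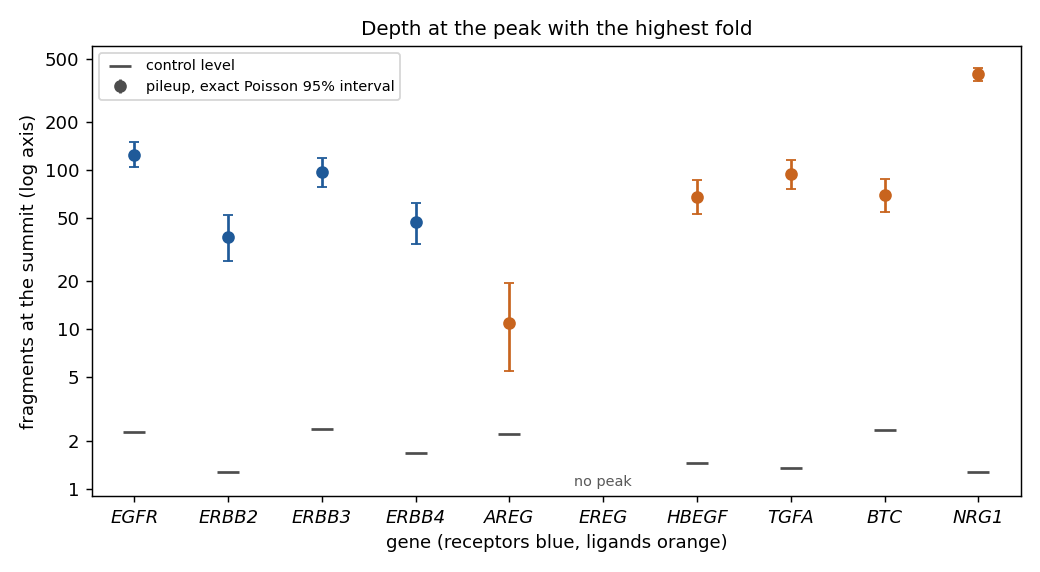
Fragments piled up at the peak with the highest fold of each gene (points, with exact Poisson 95% confidence intervals, log axis) and the control level there (dashes). The pileup of NRG1, 398 fragments, is above the intervals of all other members, that of AREG, 11 fragments, is below them, and the control levels lie between 1.28 and 2.36.

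The receptors and the ligands were compared over windows of nearly equal total length, 1580 and 1578 kb. The receptor windows held 26 peaks and the ligand windows 41, of which 27 were in NRG1. As a density, receptors had a median of 6.02 peaks per 100 kb of window (0.499 in ERBB4 to 9.93 in ERBB2) and ligands 2.82 (0 in EREG to 7.44 in HBEGF), against 2.90 over all protein-coding genes. The densities of the 2 groups overlapped. The high values of ERBB2 and ERBB3 include peaks at their neighbours. With only the peaks nearest to the start of the member itself, the median density was 2.53 in the receptors and 2.67 in the ligands, so the groups were close. This rule left NRG1 with 10 of its 27 peaks, since the others are nearer to LOC128092250, a short gene within it. The highest fold of a gene had a median of 23.6 in receptors (17.1 to 38.5) and 24.6 in ligands (none in EREG to 175), and of 21.3 over all protein-coding genes, with genes without a peak counted as lowest. By this measure the receptors and the ligands had similar medians in these windows, and the ligands had the wider spread. Counting by summit, or at a −log10 q of 10 or more, left both medians as they were. With the gene span plus 5 kb the medians were 23.6 in the receptors and 18.6 in the ligands. The span alone, and peaks nearest to the start of the member, gave the same values. With 50 kb on each side they were 35.2 and 24.6, so the similarity depends on the window. Genes are not replicates, and no test was made of the difference.

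Peaks of a fold of 20 or more made up 11.5% of the receptor peaks (3 of 26, Wilson 95% confidence interval 4.0% to 29.0%) and 36.6% of the ligand peaks (15 of 41, 23.6% to 51.9%). Over all peaks the share was 25.4%. Without NRG1, it was 28.6% in the ligands (4 of 14, 11.7% to 54.6%). Without ERBB4, it was 15% in the receptors (3 of 20). These intervals overlap, they cover counting error only, and peaks of the same gene are not independent. The median fold was 7.61 for receptor peaks and 11.9 for ligand peaks, against 9.63 for all peaks. It was 9.01 for the receptors without ERBB4 and 8.76 for the ligands without NRG1, so the receptors were then not the lower group. Widths were alike, with medians of 518 and 513 bp against 519 bp for all peaks, and so were the control levels, with medians of 1.68 and 1.69 against 1.67. The pileup had a median of 21.5 fragments in receptor peaks, 32 in ligand peaks and 26 in all peaks.

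By position, the 11 peaks whose summit was no more than 1 kb from the 5′ end of a member had a median fold of 15.9 and a median width of 965 bp. The 56 peaks farther away had a median fold of 9.85 and a median width of 514.5 bp, and the 30 of these outside NRG1 a median fold of 7.52. The same split was not made over all peaks of the list, so whether it is particular to these genes is not known. There were 6 start peaks in the receptors, 3 of them the narrow peaks of ERBB4, and 5 in the ligands. By gene, 4 of 4 receptors and 5 of 6 ligands had such a peak. Over protein-coding genes of known direction, 61.5% had any part of a peak no more than 1 kb from the 5′ end. The start peaks were strongest in EGFR, ERBB3, TGFA and BTC, with folds from 21.2 to 38.5, and weakest in ERBB4 and AREG.

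Window length matters for these counts. Of the 69 protein-coding genes whose span exceeds 1 Mb, 2 are members, NRG1 and ERBB4. Their windows differ little in length, 1175 and 1203 kb, but held 27 and 6 peaks. The median among the 69 genes was 9 peaks, with a range of 0 to 34. NRG1 ranked 5th by number of peaks and 1st by highest fold, while ERBB4 ranked 44th and 58th. In density NRG1 had 2.30 peaks per 100 kb and ERBB4 0.499, against a median of 0.577 among these long genes. Among the 8983 genes with windows of up to 60 kb, which include AREG and HBEGF, 78.7% had a peak and the median number was 2. Of the 5621 with windows of 60 to 100 kb, which include EREG, BTC, ERBB2 and ERBB3, 90.7% had a peak.

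**Figure D4:**
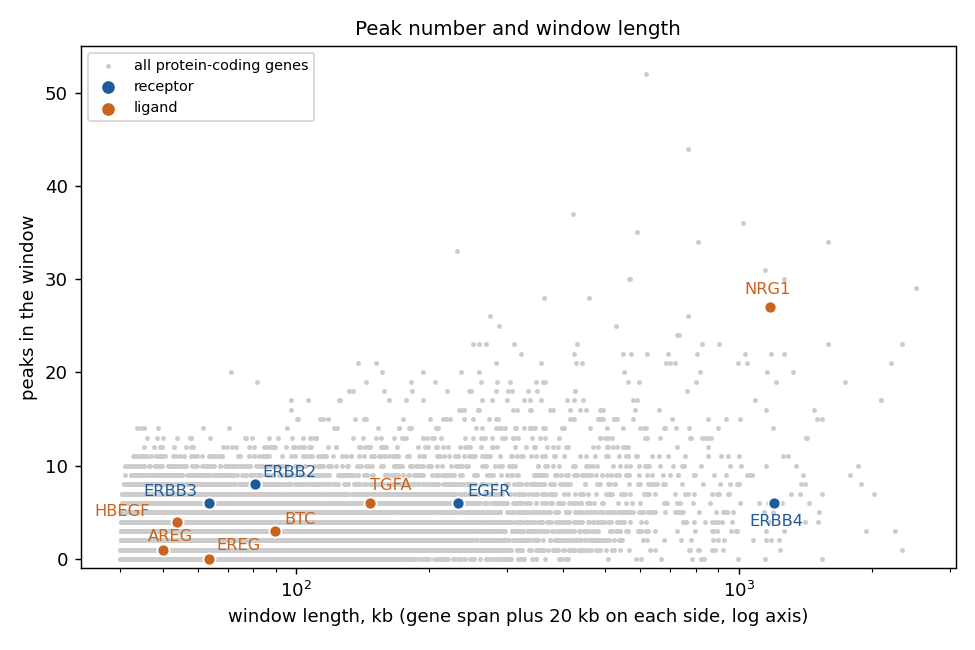
Number of peaks in the window of each protein-coding gene (grey) against the length of the window in kb (log axis), with receptors in blue and ligands in orange. NRG1 and ERBB4 lie at nearly the same length, with 27 and 6 peaks, and EREG lies at 0.

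The 20 kb limit left some peaks just inside and some just outside. Just inside were the peak at PNMT, 19.8 kb upstream of ERBB2, the upstream peak of HBEGF and the downstream peak of BTC. Just outside were a peak 0.697 kb beyond the ERBB2 window with a fold of 9.20, a peak 0.469 kb beyond that of HBEGF with a fold of 9.55, and the stronger of the peaks between EREG and AREG, 3.04 kb beyond the window of AREG. On the GRB7 side of ERBB2, a peak with a fold of 41.6 lay 4.90 kb beyond the window. Farther out, 43.0 kb past the 3′ end of EGFR, a peak had a fold of 41.3.

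In the rest of the pathway, 23 of 24 genes had a peak within 20 kb, against 86.3% of all protein-coding genes, and 15 had 1 with a fold of 20 or more (62.5%, against the 52.6% of all protein-coding genes). The median of their highest folds was 24.4. All 8 genes for adaptors and kinases that carry the signal from the receptors (GRB2, SHC1, SOS1, GAB1, PLCG1, PIK3CA, PIK3R1 and SRC) had such a peak, with a median highest fold of 44.2. So did all 4 genes for the sheddases ADAM10 and ADAM17 and the iRhom proteins RHBDF1 and RHBDF2 that help ADAM17 release ligands. Of the 7 genes for brakes on the receptors (ERRFI1, LRIG1, CBL, CBLB, SOCS3, PTPN1 and RNF41), 2 had such a peak, CBL and SOCS3. Of the 5 other ligands (EGF, EPGN, NRG2, NRG3 and NRG4), only NRG2 had 1. These groups are small, and the differences between them were not tested. The 3 highest folds were 115 at PIK3R1, the gene for the regulatory subunit of PI3K, with a summit 0.325 kb from its start, then 93.4 at NRG2, 104 kb from its start, and 75.4 in the window of SOCS3. The last was 17.8 kb from the start of SOCS3 and nearest to that of PGS1. At the other end stood EPGN without a peak, PTPN1, a phosphatase gene, with 7.83, and NRG3 with 7.88. NRG3 has a span of 1111986 bp, close to that of NRG1, but 2 peaks. Of the 21 genes of this list with a known 5′ end, 18 had a peak no more than 1 kb from it, against 61.5% of the protein-coding genes of known direction. EGF, EPGN and NRG3 had none.

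**Figure D5:**
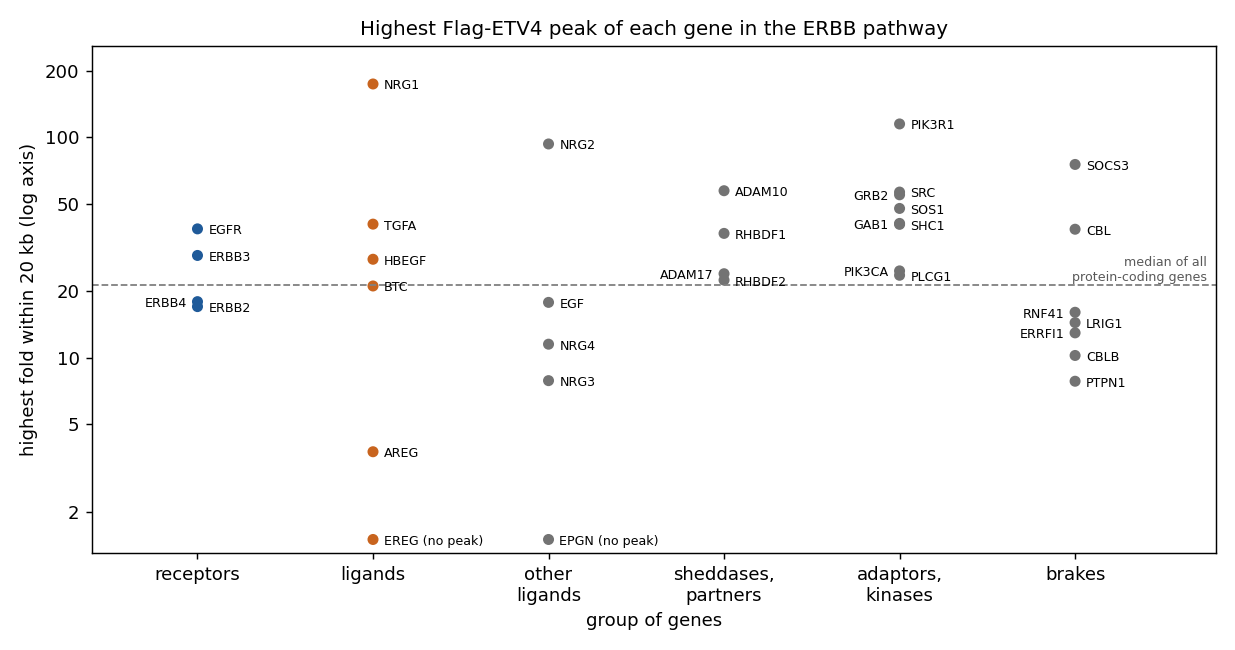
Highest fold within 20 kb for the 10 members and 24 further genes of the ERBB pathway (log axis), by group, with a dashed line at the median of all protein-coding genes, 21.3. All adaptors and kinases are above the line, the ligands run from NRG1 at 175 to AREG at 3.75, and EREG and EPGN, without a peak, are drawn at the bottom.

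The depth behind the peaks limits what can be ranked. The pileup over all peaks had a median of 26 fragments and a minimum of 6. The control level of 14 of the 67 member peaks was 1.28, the lowest in the list, which 29.0% of all peaks share. The member peaks had control levels up to 4.39, the highest next to PA2G4. Where no peak is listed, as for EREG, the signal was below the threshold of the list, and its size is not known. Whether peaks fall in exons or introns was not analysed here, because the gene table gives only outer ends.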

How the data were processed

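The authors deposited 1 peak list, called on the anti-Flag immunoprecipitate against its input and not pooled. Its fold enrichment is a ratio that the authors' peak caller computed from the immunoprecipitate and the control level at the summit. The authors deposited −log10 values of p and q from the same caller, with q corrected over the genome. The lowest −log10 q was 1.30. The submitters' processing notes name Bowtie2 2.4.1, SAMtools, MACS2 2.2.7.1, deepTools 3.5.0 and hg38, without parameters. The Flag antibody is from Sigma in the sample labels and from CST in the study's methods.

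Gene spans came from RefSeq (GRCh38.p14), and starts, strands and promoter sequences from a RefSeq table that holds 8 of the 10 members. For genes without a listed start, both ends served in the search for the nearest start. Positions are 1-based. Pileup and control level were solved from fold and −log10 p, with a pseudocount of 1 in the fold and a Poisson model for p. For 100% of the peaks the pileup was whole within 0.01. The functions were tested on simulated data. Intervals are exact Poisson or Wilson, at 95%, and cover counting error only, since PCR copies without molecular identifiers are not independent molecules. No test between conditions was possible, and backgrounds are shares over all protein-coding genes.

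In each window, all peaks are named when there are 5 or fewer, otherwise the 3 with the highest fold, the 1 nearest the start and the 1 with the lowest. Of the pathway list the 3 highest and 3 lowest are named. Other peaks, at neighbouring genes, near the 3′ end of ERBB2, at the start of ERBB4 and between EREG and AREG, were picked after their values were seen, as were further pathway genes. The members and lists were chosen with earlier results of these data known. Alternatives varied the window, the threshold, the rule of overlap and the motif. Values were computed in Python 3.11.15 with scipy 1.17.1, pandas 2.3.3 and numpy 2.4.6, and plots drawn with matplotlib 3.10.9.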

Additional observations from a re-analysis of the deposited data

How the results depend on the processing

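No paired analysis was possible because there was 1 immunoprecipitate and 1 input library, and for the same reason no replicate could be left out. Of 58 recomputed values, 47 stayed within 1.5 times the reported one. The 26 receptor peaks became 16 with the gene span only, 16 with a −log10 q of 10 or more, 16 with peaks nearest to the start of the member only, and 10 with a fold of 10 or more. The 41 ligand peaks became 23 with peaks nearest to the start of the member, because many peaks inside NRG1 are nearer to LOC128092250, a short gene within it, than to the outer 5′ end of NRG1, and 25 with a fold of 10 or more. The median density per 100 kb of the receptors became 2.53 with peaks nearest to the start of the member, below the 2.67 of the ligands under the same rule, and at a fold of 10 or more the medians were 2.01 in the receptors and 1.79 in the ligands. At a fold of 50 or more, 1 member, NRG1, had such a peak in its window. The share of all protein-coding genes at that fold is not given here, so this count has no background. Of the 67 member peaks 4.48% reached that fold, against 6.06% of all peaks. The longer ETS motif was in 10% of the 10 promoter windows listed for 8 members, in ERBB2 alone, against 4.41% of all windows. The GGAA core was in 100% of them, against 92.5% of all windows. The count of members with a peak at the 5′ end was 7 to 9 in the alternatives tried. The share of 61.5% over protein-coding genes holds for the main rule only.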
